A study of Drosophila melanogaster with 6 samples.

Results

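Long noncoding RNAs (lncRNAs) are transcripts without a recognised protein product, and antisense RNAs (asRNAs) are noncoding transcripts made from the strand opposite another gene. The RNAs described here were the rows of the deposited count table of fly hemocytes that were named with the lncRNA or asRNA prefix and that held at least 60 counts summed over the 6 libraries. The table had 13395 rows, of which 952 carried 1 of these prefixes (785 lncRNA and 167 asRNA rows), and 196 of those 952 reached the total. The 196 comprised 139 lncRNAs and 57 asRNAs, while 180 of the prefixed rows had no count in any library. These RNAs were thus chosen by their summed count over both stages. Their levels are given as a description, while the difference between the stages, which the choice did not use, was tested.

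The libraries were made from GFP-positive hemocytes, the blood cells of Drosophila melanogaster, sorted from animals of the genotype Hml-GAL4.delta, UAS-GFP. One group came from wandering third-instar larvae (L3 wandering larvae, 3 libraries) and the other from white prepupae (3 libraries), the stage at the onset of metamorphosis, and both groups carried the same driver and reporter. The Hml promoter is active mainly in plasmatocytes, the macrophages of the fly, so the sort was for cells in which this driver had made GFP, and its purity was not measured here. The reporting summary of the study states that animals of both sexes were used for macrophage isolation, without a proportion for these libraries. Nothing in the labels says that the 3 libraries of a stage came from separate animals, so p-values measure the spread between these libraries only.

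Noncoding RNAs of this kind act in many ways. Some are scaffolds that hold proteins on chromatin or in nuclear bodies, some are precursors cut into microRNAs, and some affect the neighbouring gene through the act of transcription itself, whereas for most annotated fly lncRNAs no function is known. In flies the best studied are roX1 and roX2, the RNA parts of the male dosage compensation complex that coats the X chromosome, and Hsromega, the RNA around which omega speckles form in the nucleus. The primary transcript of let7C carries the let-7 microRNA cluster, which is switched on at metamorphosis.

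The 6 libraries held between 19228352 and 25958543 counts. All 8 plasmatocyte markers examined were detected, and 7 of them fell and 1 rose in prepupae. Their summed level was 10410 to 15770 CPM (counts scaled to 1000000 per library) in larval and 3057 to 4054 CPM in prepupal libraries, with Hml itself at 4909 ± 1592 and 149 ± 87.6 CPM (SD, n = 3 each). The 4 crystal cell markers also fell, from 2048 to 3209 CPM down to 555 to 1471 CPM in sum, and of 4 tested lamellocyte markers 1 rose and 1 fell (summed over the list, 999.9 to 1398 and 520.2 to 642.0 CPM). Markers of tissues outside the sort were low in sum. Fat body genes reached 58.9 to 67.0 CPM in larval and 69.3 to 86.8 CPM in prepupal libraries (3 of 6 tested rose and 1 fell), salivary gland genes 6.43 to 9.01 and 6.52 to 9.81 CPM with 1 marker at 0, muscle genes 39.1 to 54.7 and 34.7 to 45.9 CPM, and neuronal genes 2.77 to 5.88 and 2.72 to 3.37 CPM. Germ line and testis genes summed to 2.497 to 2.942 and 14.1 to 15.5 CPM, with Mst87F as the 1 of 3 tested that rose. With the replicate block, which pairs same-numbered libraries, the lamellocyte marker mys was also higher and elav and topi, a neuronal and a testis marker, were lower. With the length trend described below removed, the crystal cell marker peb was no longer called, while mys and the muscle marker sls were called higher. The part of these marker differences in the results below was not tested, and in bulk libraries fewer cells of a type and less RNA per cell cannot be told apart.

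Most of the 196 RNAs were scarce. Their median total was 172 counts over the 6 libraries, the lowest was 60 and the highest 151459. Divided by exonic length, the median level was 1.49 CPM per kb, against 13.2 CPM per kb for the 7597 protein-coding genes that held the same minimum total and had an annotated length, and 15 of the 196 lay above that coding median. Not divided by length, 116 averaged at least 1 CPM over the 6 libraries, 38 at least 5 CPM and 21 at least 10 CPM. A single RNA, lncRNA:CR42862, supplied 49.98% of all their counts, and with roX1 it supplied 60.9%. Together the 196 took 0.295%, 0.207% and 0.323% of the counts in larval libraries 1, 2 and 3 and 0.190%, 0.179% and 0.197% in the prepupal libraries. Without CR42862 the shares were 0.111%, 0.0917% and 0.137% against 0.122%, 0.126% and 0.117%, so that the stages, which were apart with it, overlapped without it.

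The first question was which of these RNAs differed between larval and prepupal hemocytes. Of the 196, 181 passed the filter on low counts and 15 did not. In edgeR's quasi-likelihood test, with Benjamini-Hochberg adjustment over the 7914 rows tested and a threshold of 0.05, 60 were higher in prepupae, 29 were lower and 92 were not called. The called share of tested RNAs was 49.2%, against 53.9% of all rows tested. Split by direction, 33.1% were higher against a background of 26.6%, and 16.0% were lower against 27.3%. The median log2 fold change (prepupal over larval) was 0.21 for the 181 and -0.03 for all rows tested. Changes of at least 2-fold were frequent: 74 of the 181, or 40.9%, passed both the threshold and a 2-fold change (51 higher and 23 lower), against 20.0% of all rows. Most of these RNAs were low, and among rows averaging below 5 CPM the 2-fold share lay closer to its background. There, 53 of 143 RNAs were called with at least a 2-fold change (37.1%, background 29.9%). The called share of these 143 was above its background (60 RNAs, 42.0%, background 32.8%), whereas over all levels it was below (49.2% and 53.9%). The stages did not overlap for 105 of the 181 (69 with all prepupal libraries above all larval ones and 36 with the reverse), which is 58.0% against 63.0% of all rows tested.

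**Figure D1:**
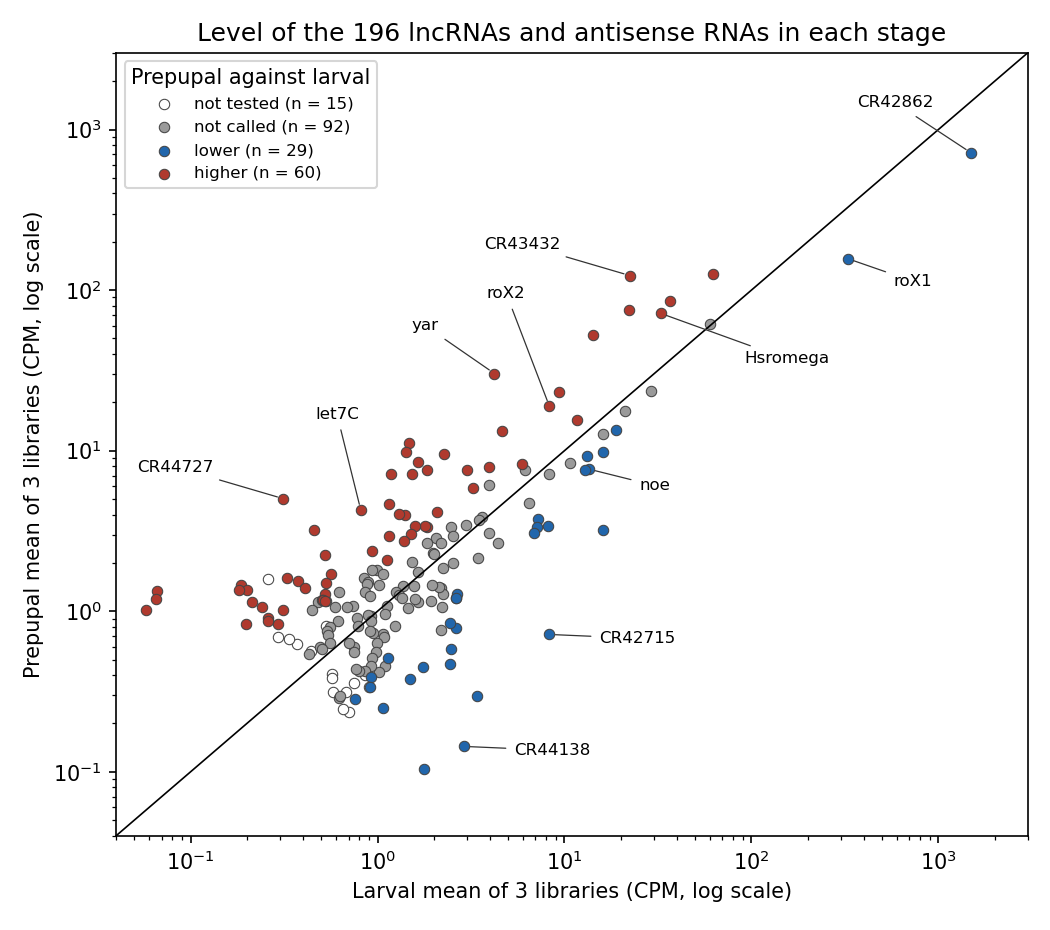
Mean level of each of the 196 lncRNAs and asRNAs in the 3 larval libraries (x axis) and the 3 prepupal libraries (y axis), both in CPM on log scales, with the line marking equal levels and colours giving the edgeR call. CR42862 and roX1 stand far to the right of the other RNAs and below the line, while the 60 RNAs that were higher and the 29 that were lower spread over most of the range of levels below them.

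The excess of higher over lower calls was not the same under every scaling. Of the 89 called RNAs, 67.4% were higher in prepupae, beside 49.4% of all called rows. Library totals in place of the TMM scaling moved the median log2 fold change of all rows to -0.22. With them 46 RNAs were higher and 39 lower (54.1% higher, beside 33.2% of all called rows). The stage difference also followed transcript length in this table. The tested RNAs had a median exonic length of 995 bp, against 2083 bp for all rows tested. Among RNAs shorter than 1000 bp, 36 of 92 were higher (39.1%) and 9 lower (9.78%), beside 49.9% and 7.28% of all 1222 short rows. Among RNAs of 1000 bp or more, 24 of 89 were higher (27.0%) and 20 lower (22.5%), beside 22.3% and 30.9% of 6651 rows. Removing the length trend from the fit gave 43 higher and 38 lower RNAs (53.1% higher, beside 49.2% of all called rows). Of these, 42 and 26 were also called in that direction with the trend in place. Leaving out 1 library at a time gave 45 to 53 higher calls, and 39 RNAs were higher in every such fit. The number of lower calls was 18 without larval replicate 1, 18 without larval replicate 3 and 19 without prepupal replicate 2. Without any 1 of the others it was 20 to 30, and 14 RNAs were lower in every fit. Over all rows, the called share was 40.3%, 43.8% and 42.6% in the 3 fits named. It was 47.7% to 55.8% without any 1 of the others, and 53.9% with all 6 libraries.

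The 2 RNAs of dosage compensation moved in opposite directions. roX1 (FBgn0019661, X:3857230-3862697, minus strand) had 328, 149 and 507 CPM in larval libraries 1, 2 and 3 and 168, 155 and 148 CPM in prepupal libraries 1, 2 and 3. Larval replicate 2 lay within the range of the prepupal libraries and the other larval libraries lay above it, so the stages overlapped. The log2 fold change was -1.06 ± 0.34 (SE, edgeR adjusted p = 0.023), which is 2.09-fold lower in prepupae. The call was lost without larval replicate 3 (-0.58), without prepupal replicate 1 (-1.11), 2 (-1.05) or 3 (-1.02), in limma-voom (-0.89) and with the length trend removed (-0.63). roX2 (FBgn0019660, X:11579065-11580432, plus strand) had 8.90, 3.86 and 12.2 CPM in the larval and 17.4, 25.9 and 13.3 CPM in the prepupal libraries, and no larval value reached the lowest prepupal one. Its log2 fold change was 1.18 ± 0.37 (edgeR adjusted p = 0.022). That call was lost with library totals (0.96), with the length trend removed (0.95) and without prepupal replicate 2 (0.88).

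The ratio of the pair was steadier among the larval libraries than either level. For each 100 roX1 counts there were 2.71, 2.59 and 2.40 roX2 counts in larvae, a mean of 2.57 ± 0.16 (SD, n = 3), although roX1 itself varied more than 3-fold among them. In prepupae there were 10.3, 16.8 and 8.96 roX2 counts for each 100 of roX1, a mean of 12.0 ± 4.18 (SD, n = 3). The ratio was higher in all 3 prepupal libraries, and a two-sided exact permutation test gave p = 0.10, the smallest value that 3 against 3 libraries allow. The relation was examined after the values of both genes had been seen. roX1 overlaps the coding gene ec by 392 exonic bp on the opposite strand, but ec held 231 counts in all against 33074 for roX1, and roX2 overlaps no other gene.

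**Figure D2:**
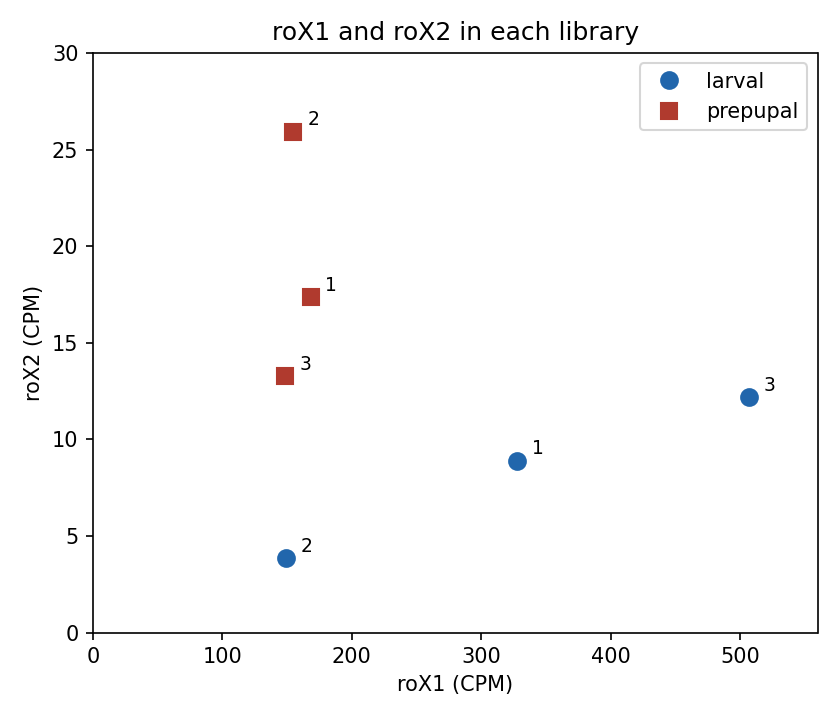
Level of roX1 (x axis, CPM) and roX2 (y axis, CPM) in each of the 6 libraries, with circles for larval and squares for prepupal hemocytes and the replicate number beside each point. The larval libraries fall along a line with 2.40 to 2.71 roX2 counts for each 100 roX1 counts, and the prepupal libraries sit at 148 to 168 CPM of roX1 with more roX2 than any larval library.

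The genes for proteins that work with the roX RNAs were lower or not called. Of 6 dosage compensation genes, msl-1 (log2 fold change -0.82, edgeR adjusted p = 0.0032) and mof (-0.51, adjusted p = 0.019) were lower and the other 4 were not called. With the length trend removed mof was not called (-0.33) and Clamp, which encodes a DNA-binding protein that guides the complex, was higher (0.23, adjusted p = 0.042). msl-1 encodes the scaffold of the complex and mof its histone acetyltransferase. msl-2, which encodes the subunit made in males, had 42.8, 26.2 and 59.8 CPM in larvae and 47.8, 42.7 and 38.2 CPM in prepupae and was not called (-0.00, adjusted p = 1.0). Its lowest and highest values were both larval, in larval replicates 2 and 3, which also had the lowest and highest roX1 of the larval libraries. Over the X chromosome as a whole, 32 of the described RNAs were tested, of which 10 were higher and 7 lower (53.1% called, beside 50.3% of the 1336 rows tested on X).

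Hsromega (FBgn0001234, 3R:21296127-21317836, plus strand) was higher in prepupae. It had 29.2, 32.5 and 36.4 CPM in the larval and 96.1, 58.1 and 60.9 CPM in the prepupal libraries, with no overlap and with prepupal replicate 1 above the rest. The log2 fold change was 1.13 ± 0.19 (edgeR adjusted p = 0.0011), and with the length trend removed, which moves this 21710 bp transcript more than most, it was 1.84. Hsromega takes its name from heat shock, which induces it. Of 8 heat shock genes tested, 5 were higher (Hsp83, Hsp26, Hsp27, Hsp23 and Hsc70-4) and Hsp70Bb, whose reads may be split among near-identical Hsp70 copies, was lower. With the replicate block Hsp68, which fell within each same-numbered pair of libraries, was also lower (log2 fold change -0.73, adjusted p = 0.0074, against 0.17 without the block). The list summed to 8378 to 15370 CPM in larval and 29080 to 40710 CPM in prepupal libraries. The chaperone gene Hsp83, like Hsromega, was highest in prepupal replicate 1, with 2249, 1496 and 341 CPM in the prepupal libraries against 634, 457 and 302 CPM in the larval ones. Omega speckles gather RNA-binding proteins around Hsromega. Of 11 genes listed for them none was higher and 6 were lower, among them the hnRNP genes sqd (log2 fold change -1.37, edgeR adjusted p = 0.00064) and Hrb87F (-0.45, adjusted p = 0.012). With the length trend removed 2 were higher, HnRNP-K (0.26) and TBPH (0.31), and 5 were lower, sqd and Hrb87F among them.

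The let7C transcript (FBgn0263049, 2L:18455717-18473132, plus strand) was among the RNAs with the largest rise. It had 18, 29 and 11 counts in the larval and 84, 86 and 72 counts in the prepupal libraries, or 0.654, 1.32 and 0.472 against 4.72, 4.26 and 3.78 CPM. The stages were far apart, with a log2 fold change of 2.39 ± 0.39 (edgeR adjusted p = 0.00081). The libraries were made from mRNA, so these counts are of the primary transcript and not of the mature microRNAs. let7C shares 169 exonic bp with CG10283 on the opposite strand, and CG10283 moved the other way, from 22.5 to 3.86 CPM on average (log2 fold change -2.54, edgeR adjusted p = 6.8e-06). Spread evenly over its exons, the counts of CG10283 would place 103.5 on the shared stretch, against 300 held by let7C over all 6 libraries. From which of the 2 genes the reads of let7C came was not tested. Among 7 genes listed as let-7 targets or as genes of the microRNA pathway, 5 were tested. The processing factor gene loqs rose (0.49, adjusted p = 0.019), while Dcr-1 (-0.43), which encodes the enzyme that cuts microRNA precursors, and AGO1 (-1.24), which encodes the protein that binds microRNAs, fell. With the length trend removed Dcr-1 was at 0.03 and was not called.

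yar (FBgn0266568, X:362399-367072, plus strand), an RNA of the yellow-achaete region linked to sleep in adult flies, was at 4.18, 4.54 and 3.95 CPM in larval and at 25.97, 35.8 and 29.0 CPM in prepupal libraries. The larval libraries were nearly equal and every prepupal library was well above them, with a log2 fold change of 2.84 ± 0.17 (edgeR adjusted p = 3e-06). It overlaps the gene body of CG32816 on the opposite strand without sharing exonic bases with it. CG32816 fell from 2.77 to 0.245 CPM on average (log2 fold change -3.47, edgeR adjusted p = 0.0035). noe (FBgn0026197, 3L:17400272-17401348, minus strand) lies in an intron of blot on the same strand. It had 16.1, 10.7 and 13.95 CPM in larval and 9.22, 6.23 and 7.56 CPM in prepupal libraries, did not overlap between the stages and fell by 0.83 on the log2 scale (SE 0.21, edgeR adjusted p = 0.0081). Its host gene blot was not called (-0.26, adjusted p = 0.17).

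**Figure D3:**
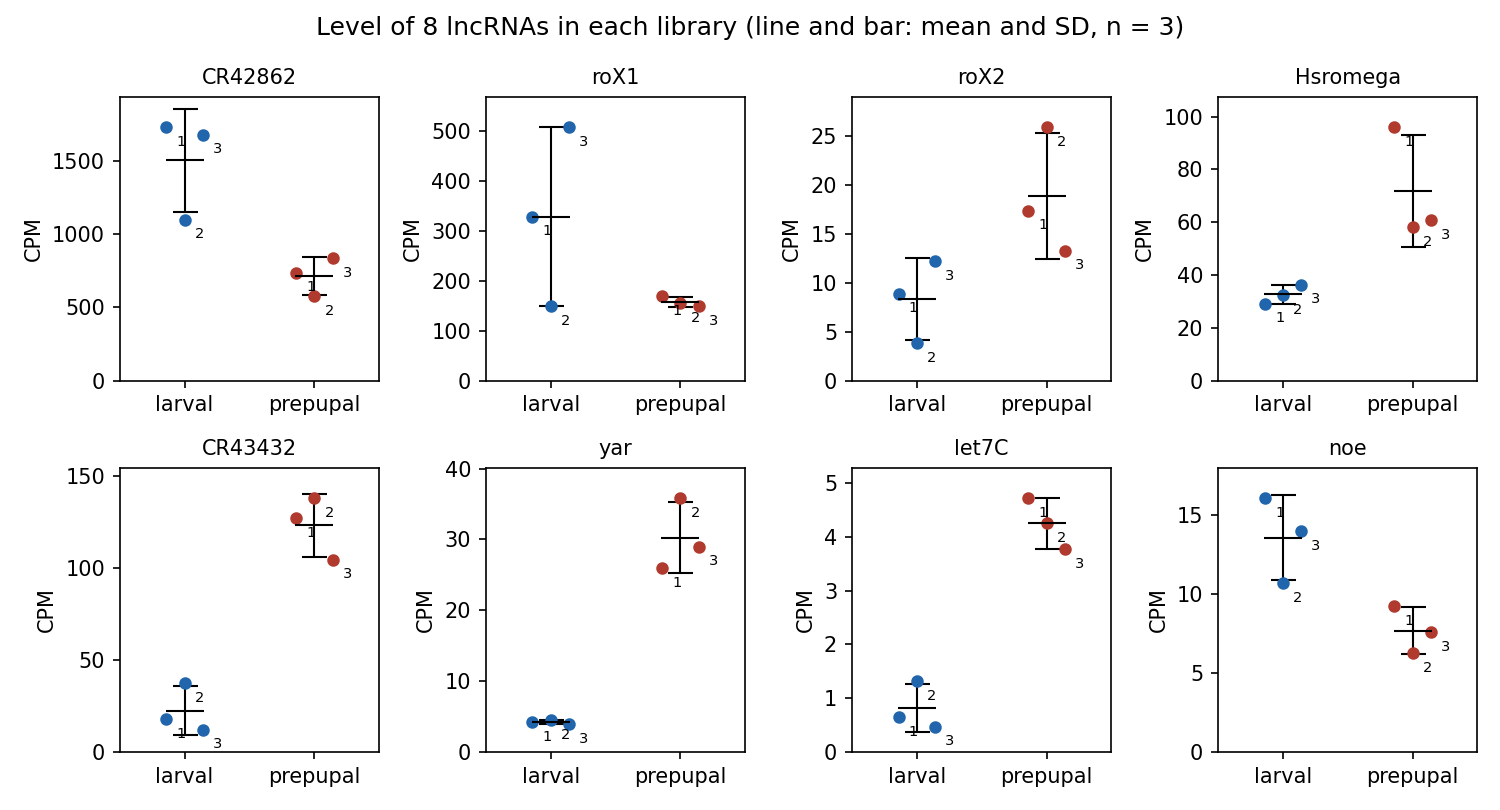
Level in CPM of 8 lncRNAs in each library, with larval libraries in blue, prepupal libraries in red, the replicate number beside each point, and a line and bar for the mean and SD of 3 libraries. The stages overlap for roX1, where larval replicate 2 is level with the prepupal libraries, and are apart for the other 7.

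Among the most abundant RNAs that have only an annotation number, CR42862 led by far. CR42862 (FBgn0262109, 3L:224106-230964, plus strand) had 1729, 1098 and 1676 CPM in larval and 737, 576 and 833 CPM in prepupal libraries. All larval values lay above all prepupal ones, and the log2 fold change was -1.07 ± 0.20 (edgeR adjusted p = 0.0017) and -0.67 with the length trend removed. Divided by length it was also the most abundant of the 196, at 202 CPM per kb. It overlaps CG33229 by 246 exonic bp on the same strand, and CG33229 held 4473 counts against 151459 for CR42862.

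Of the other 7 numbered RNAs among the 10 with the highest mean CPM, 5 rose. CR43432 (FBgn0263380, 3L:14976626-14977631, minus strand), which overlaps no gene, went from 17.7, 37.5 and 12.1 CPM to 127, 138 and 105 CPM (log2 fold change 2.46 ± 0.35, edgeR adjusted p = 0.00038). Larval replicate 2 was the highest of its larval values, and without that library the change was 3.08. CR45593 (FBgn0267153, 3R:6761513-6763478, minus strand) rose from 59.97, 77.0 and 49.9 to 116, 134 and 127 CPM (1.02 ± 0.16, adjusted p = 0.00065), and its partner Ama, with which it shares 102 exonic bp on the opposite strand, rose too (1.06). Ama held 552913 counts against 11707 for CR45593. Spread evenly over the exons of Ama, its counts would place 28980 on the shared stretch. From which of the 2 genes the reads of CR45593 came was not tested.

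CR34335 (FBgn0267910, X:3545750-3546110, minus strand), a 361 bp RNA in an intron of DIP-alpha, was at 33.0, 39.7 and 36.9 CPM in larval and at 78.5, 104 and 72.6 CPM in prepupal libraries. Its log2 fold change was 1.22 ± 0.15 (edgeR adjusted p = 0.0002), or 0.56 with the length trend removed, and DIP-alpha, which encodes a cell surface protein of the immunoglobulin superfamily, fell (-1.35, adjusted p = 0.0077). asRNA:CR43957 (FBgn0264617, 4:56497-63124, plus strand) had 20.3, 27.8 and 18.3 CPM in larval and 70.2, 85.3 and 69.2 CPM in prepupal libraries (1.76 ± 0.17, edgeR adjusted p = 4.8e-05). It shares 53 exonic bp with ci, which encodes the transcription factor of the Hedgehog pathway and fell (-0.64, adjusted p = 0.0023). CR45018 (FBgn0266376, X:13304005-13308004, plus strand) rose from 16.7, 15.2 and 10.6 to 55.7, 50.4 and 52.5 CPM (1.90 ± 0.17, edgeR adjusted p = 2.7e-05). It shares 1433 of its 4000 exonic bp with IP3K2, an inositol trisphosphate kinase gene on the same strand, which also rose (3.03, adjusted p = 4.2e-06), so reads of these 2 rows cannot be assigned with certainty.

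Neither of the remaining abundant RNAs passed the test. CR42491 (FBgn0259993, X:762615-763810, minus strand), which shares 50.5% of its exonic bases with the ribosomal protein gene RpL22 on the same strand, was at 56.2, 60.8 and 64.2 CPM in larval and at 56.0, 75.8 and 51.9 CPM in prepupal libraries, with full overlap (log2 fold change 0.02 ± 0.15, edgeR adjusted p = 0.92). Its sign was negative with library totals and with the length trend removed, and with the latter it was called lower (-0.49). CR42549 (FBgn0260722, 3R:9548104-9551806, minus strand) was at 31.4, 24.1 and 31.9 CPM and at 20.7, 23.0 and 27.3 CPM (-0.30 ± 0.16, adjusted p = 0.13), and it passed the threshold with library totals (-0.50) and without larval replicate 2 (-0.39).

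Among RNAs that averaged at least 1 CPM and whose stages were apart, those with the largest rise were yar, CR43432, let7C and 5 others. CR44727 (FBgn0265940, 2L:14234754-14235156, plus strand) had 5, 12 and 5 counts in larval and 88, 124 and 76 counts in prepupal libraries, which is 0.182, 0.545 and 0.215 CPM against 4.95, 6.14 and 3.99 CPM. It was 16.1-fold higher in prepupae (log2 fold change 4.01 ± 0.43, edgeR adjusted p = 8.5e-05), and 4.66 on the log2 scale without larval replicate 2. Too few larval libraries of CR44727 reached the low-count filter to pass it alone, so whether it was tested depended partly on the stage difference. CR45424 (FBgn0266973, 3L:3244906-3245340, plus strand) had 40, 44 and 23 counts in larval and 192, 277 and 167 in prepupal libraries (2.91 ± 0.29). CR45632 (FBgn0267192, 3R:21823692-21824086, plus strand) was nearly constant among larvae with 1.42, 1.41 and 1.46 CPM and reached 10.5, 11.6 and 7.40 CPM in prepupae (2.78 ± 0.25, adjusted p = 2.6e-05). Neither CR45424 nor CR45632 overlaps a coding gene, and the nearest ones, CG12078 (-0.30) and the scaffold protein gene CASK (-0.09), were not called.

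CR32194 (FBgn0052194, 3L:18085305-18087058, minus strand) rose from 1.16, 1.82 and 0.558 to 7.14, 6.93 and 7.45 CPM (2.61 ± 0.36, edgeR adjusted p = 0.00035), together with CG34253 (2.12), with which it shares 288 exonic bp on the same strand. CR32194 held 494 counts, against 1320 that an even spread of CG34253 would place on the shared stretch. From which of these 2 genes the reads came was not tested. asRNA:CR45145 (FBgn0266638, 2R:17040195-17043298, minus strand) had 11, 12 and 10 counts in larval and 62, 75 and 45 counts in prepupal libraries (2.79 ± 0.37, adjusted p = 0.00025). Its larval libraries could not pass the low-count filter alone either, so whether it was tested depended partly on the stage difference. It runs opposite RhoGEF2, an activator of Rho1 that controls actomyosin contraction, with 80.2% of its exonic bases shared with that gene, and RhoGEF2 was lower (-0.44, adjusted p = 0.024).

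The 8 RNAs with the largest fall, chosen in the same way, had few counts in prepupae. CR44138 (FBgn0264987, 3R:13376903-13377395, plus strand), inside CG9813 on the opposite strand, had 36, 28 and 143 counts in larval and 4, 1 and 3 counts in prepupal libraries (log2 fold change -4.31 ± 0.84, edgeR adjusted p = 0.0021). Larval replicate 3 stood well above the other larval libraries, and without it the change was -3.12. CR44138 passed the low-count filter only through its larval libraries, so it had to differ between the stages to be tested. CR42715 (FBgn0261632, 2R:14639361-14639762, plus strand) had 8.68, 7.08 and 9.10 CPM in larval and 1.24, 0.495 and 0.420 CPM in prepupal libraries (-3.54 ± 0.37, adjusted p = 7.1e-05), and -4.16 without prepupal replicate 1. Its nearest coding gene, CG43236, at 426 bp on the same strand, also fell (-2.34, adjusted p = 3.3e-05). For CR42715, and for asRNA:CR43637, CR45166 and CR45732 below, too few prepupal libraries reached the low-count filter to pass it alone. Whether these RNAs were tested thus depended partly on the stage difference.

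asRNA:CR43637 (FBgn0263628, X:2200623-2201857, minus strand) had 103, 57 and 91 counts in larval and 2, 3 and 12 counts in prepupal libraries (-3.50 ± 0.54, edgeR adjusted p = 0.00062), and -4.64 without prepupal replicate 3. It runs opposite Mct1, a monocarboxylate transporter gene that fell with it (-2.73, adjusted p = 3.1e-06). CR45166 (FBgn0266676, 3L:1322877-1324221, minus strand) had 71, 33 and 76 against 7, 13 and 7 counts (-2.37 ± 0.44). It overlaps the gene body of Myo61F, an unconventional myosin gene on the opposite strand that also fell (-2.84, adjusted p = 1.2e-06). In these pairs the RNA and the coding gene dropped together. asRNA:CR43637 shares 359 exonic bp with coding exons, which lie on both strands. It shares 321 bp with Mct1, which held 32810 counts against 268 for the RNA. Spread evenly over its exons, the counts of Mct1 would place 3294 on that stretch. CR45166 shares no exonic base with Myo61F, which held 30181 counts against 207. Whether reads of the coding genes entered the counts of these RNAs was not tested.

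CR46123 (FBgn0267798, 3R:1366234-1366601, minus strand), within Myo81F on the opposite strand, had 15.2, 12.0 and 20.8 CPM in larval and 3.32, 2.47 and 3.83 CPM in prepupal libraries (-2.32 ± 0.25, edgeR adjusted p = 9e-05). Its host gene held 4 counts in all 6 libraries. CR43855 (FBgn0264437, 2L:8590370-8594489, minus strand) went against the coding gene whose body it overlaps. It fell from 58, 37 and 95 to 21, 12 and 11 counts (-1.74 ± 0.46, adjusted p = 0.011), while that gene, the guidance gene Sema1a, rose (1.19, adjusted p = 0.013). The call on CR43855 was lost without larval replicate 3 (-1.26). CR45732 (FBgn0267296, 3L:19439927-19441195, minus strand) fell from 45, 29 and 53 to 14, 2 and 9 counts (-1.96 ± 0.57, adjusted p = 0.016, and -2.60 without prepupal replicate 1). CR45517 (FBgn0267073, X:5428483-5429256, plus strand) fell from 63, 40 and 76 to 18, 14 and 16 counts (-1.53 ± 0.37, adjusted p = 0.0063).

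The next question was how these RNAs lie relative to protein-coding genes, since the libraries were prepared without strand information and reads from a gene and from its antisense partner cannot be told apart. The exons of 94 of the 196 overlapped exons of a coding gene (75 on the opposite strand, 16 on the same strand and 3 on both). Another 39 overlapped the body of a coding gene, in whole or in part, without sharing coding-gene exons. Of these, 31 were on the opposite strand, and 63 of the 196 overlapped no coding gene. Of 86 tested RNAs that shared exons, 22 were higher and 12 lower (39.5% called). Beside these, 14 and 8 of 37 that overlapped only gene bodies were called (59.5%), and 24 and 9 of 58 without overlap (56.9%). The difference between these shares was not tested. Counting overlap with any gene, 35 of the 78 tested RNAs that shared no exonic base were higher and 14 lower (62.8% called), and 25 of 103 that shared some were higher and 15 lower (38.8%). These sets also differed in length, with a median of 714.5 exonic bp without and 1355 bp with shared bases. The part of length in these shares was not tested.

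**Figure D4:**
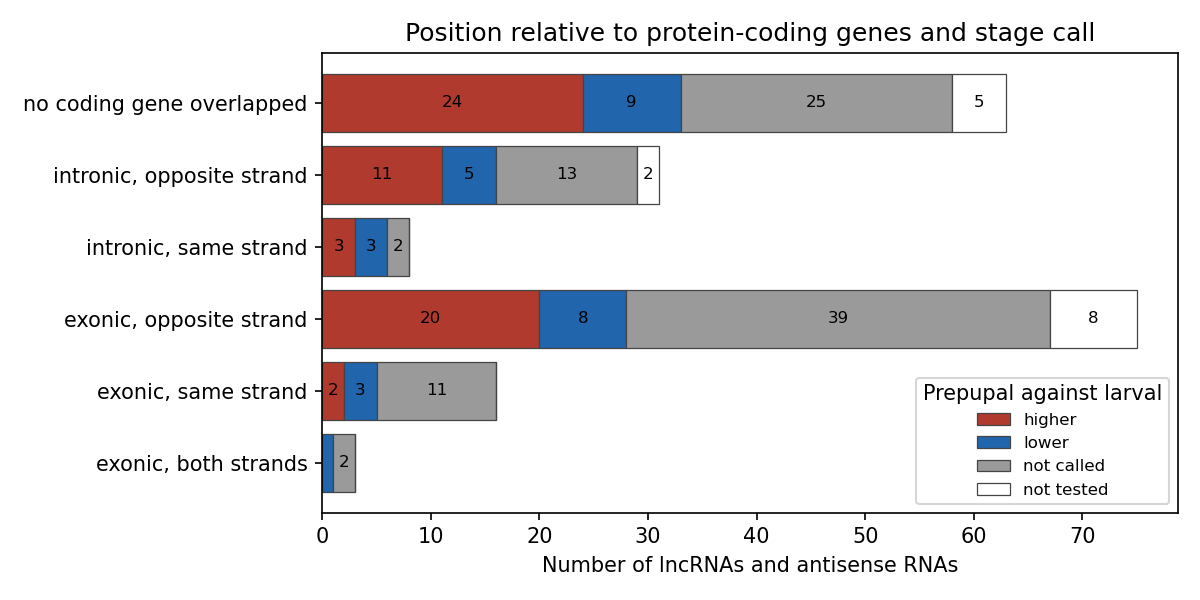
Number of lncRNAs and asRNAs (x axis) in each position relative to protein-coding genes, divided into those higher in prepupae, lower, not called and not tested. The largest class is exonic overlap on the opposite strand (75 RNAs, 39 of them not called), followed by the 63 RNAs that overlap no coding gene (24 higher and 9 lower).

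By prefix, 46 of 130 tested lncRNAs were higher and 23 lower (53.1% called, median log2 fold change 0.38), and 14 of 51 asRNAs were higher and 6 lower (39.2%, median 0.08). The asRNAs were the more entangled set, with a median of 45.4% of their exonic bases shared with another gene, whereas the median lncRNA shared none. Median exonic length was 1222 bp for the asRNAs and 933 bp for the lncRNAs. By chromosome arm, the called shares lay near those of all rows tested on the arm or below them. On 2L 13 RNAs were higher and 2 lower of 26 tested (57.7% called, beside 56.9% of all rows), on 2R 11 and 4 of 31 (48.4% and 54.6%), on 3L 13 and 8 of 43 (48.8% and 53.8%), and on 3R 11 and 8 of 43 (44.2% and 53.3%). The median over all tested rows of an arm lay between -0.24 on chromosome 4 and 0.03 on 3L, while for these RNAs it lay between -0.06 on X and 0.63 on 2L, on far fewer rows.

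Whether the counts of an antisense row could be reads of the coding gene was examined from the shared bases. If the coding gene's counts were spread evenly over its exons, a known number of them would fall on the shared stretch. Among the 196 RNAs, 58 pairs with a coding gene shared at least 100 exonic bp and had at least 100 counts predicted in this way. The RNA's own count was under 10% of that prediction in 28 of the 58 pairs and below the prediction in 50. Whether reads that meet more than 1 gene were counted is not given in the sources. Had they been left out, the shared stretch would add to neither row, and these shares would say nothing of reads passing from a coding gene to an RNA. From which strand the counts came was not tested.

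The 6 called RNAs with the largest share of exonic bases in coding exons had 69.1% to 95.9% of their exons shared. The antisense RNA asRNA:CR43866 (FBgn0264448, 2L:6004167-6006333, plus strand) runs opposite Gal, the beta-galactosidase gene. It had 124, 120 and 90 counts in larval and 160, 272 and 325 counts in prepupal libraries (log2 fold change 1.52 ± 0.25, edgeR adjusted p = 0.00091). Gal itself rose from 1055 to 3360 CPM on average (1.67, adjusted p = 5e-05), and the 1091 counts of asRNA:CR43866 were 0.753% of the 144800 predicted from Gal over the 1266 shared bp. Without strand, reads of the 2 rows cannot be told apart on the shared stretch.

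asRNA:CR43683 (FBgn0263766, 2L:9961018-9962104, plus strand) is 95.9% shared with CG5850 and had 46, 54 and 29 against 69, 72 and 52 counts (0.92 ± 0.33, edgeR adjusted p = 0.037), beside a rise of CG5850 (0.77). asRNA:CR46048 (FBgn0267715, 3L:19294727-19295198, minus strand) had 12, 5 and 5 against 13, 20 and 15 counts (1.48 ± 0.47, edgeR adjusted p = 0.024), while its partner fal was not called (0.05). asRNA:CR46048 passed the low-count filter only through its prepupal libraries, so it had to differ between the stages to be tested. asRNA:CR44053 (FBgn0264862, X:16806047-16809230, minus strand) had 9, 18 and 10 against 24, 31 and 18 counts (1.29 ± 0.46, adjusted p = 0.036), and its coding partner was not analysed here. Too few larval libraries of asRNA:CR44053 reached the low-count filter to pass it alone, so whether it was tested depended partly on the stage difference. In CPM the stages were apart for all 3 of these RNAs, by narrow margins for asRNA:CR43683 (2.45 CPM in its highest larval and 2.73 CPM in its lowest prepupal library) and asRNA:CR44053 (0.817 and 0.945 CPM).

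asRNA:CR45682 (FBgn0267242, 3L:12491840-12493605, plus strand) fell from 28, 24 and 15 to 8, 4 and 7 counts (-1.44 ± 0.48, edgeR adjusted p = 0.028), and its partner CG10657 held 12 counts in all. asRNA:CR45682 passed the low-count filter only through its larval libraries, and it too had to differ between the stages to be tested. Each of these 4 calls, on asRNA:CR43683, asRNA:CR44053, asRNA:CR46048 and asRNA:CR45682, was lost in several alternatives and with some libraries left out. The call on asRNA:CR45145, described above, was not, and its 215 counts were 5.91% of the 3638 that an even spread of RhoGEF2 would place on 1104 shared bp.

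The stage change of each RNA was then set beside that of 1 coding gene. This was the gene sharing most exonic bases, otherwise a gene whose body the RNA overlaps, otherwise the nearest. Both partners were tested in 75 pairs with shared exons, of which 20 had both called, 17 in the same direction (11 higher and 6 lower) and 3 in opposite directions. For RNAs that overlap only a gene body 32 pairs were tested, with 15 both called, 11 of them in the same direction. For RNAs without overlap 47 pairs with the nearest gene were tested, with 17 both called, 13 of them in the same direction. Over all tested pairs, called or not, the signs were the same in 46 of 75, 20 of 32 and 27 of 47. No share for other pairs of genes was computed to set beside these. Across pairs, Spearman's rho of the log2 fold changes was 0.41 with shared exons, 0.39 with gene-body overlap only and 0.41 for nearest genes (Pearson's r 0.47, 0.37 and 0.58). These correlations are across genes, which are not independent replicates and all come from the same 6 libraries, and pairs with shared exons also share sequence. The pairs without shared exons had values in the same range as the pairs with them. What gave rise to the values in either kind of pair was not tested. The 75 pairs with shared exons involved 75 distinct coding genes, the 32 with gene-body overlap only 29, and the 47 nearest pairs 45.

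**Figure D5:**
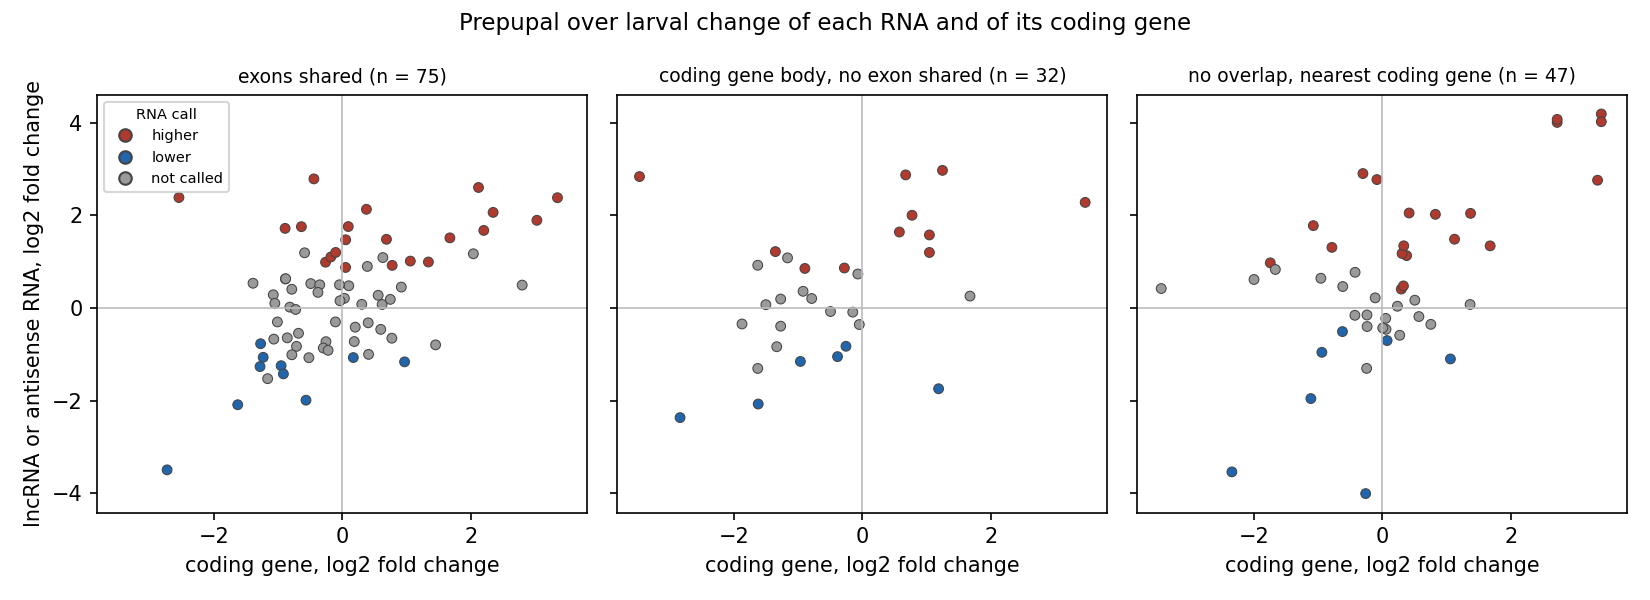
Log2 fold change (prepupal over larval) of each tested lncRNA or asRNA (y axis) against that of its coding gene (x axis), coloured by the call on the RNA. The panels hold 75 pairs with shared exons, 32 RNAs overlapping only a gene body and 47 RNAs with the nearest gene. The signs are the same in 46 of 75, 20 of 32 and 27 of 47 pairs (Spearman's rho 0.41, 0.39 and 0.41), and yar and let7C lie at the upper left of their panels.

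At 2 loci, singled out after their values were seen, neighbouring RNAs were high in prepupae together with the nearest coding gene. CR44727 and CR44728 (FBgn0265941, 2L:14235318-14236307, plus strand) lie next to each other beside Dyrk2, a protein kinase gene on the opposite strand that rose from 27.3 to 179 CPM on average (log2 fold change 2.72, edgeR adjusted p = 4.4e-06). CR44728 had 1, 3 and 0 counts in larval and 12, 28 and 19 in prepupal libraries (4.08 ± 0.74, adjusted p = 0.0015), with 5.37 on the log2 scale without larval replicate 2. CR43641 (FBgn0263650, 3R:13815279-13815778) and CR43642 (FBgn0263651, 3R:13816231-13817127), both on the plus strand, lie 11373 and 10024 bp from Mst87F, a gene of the sperm tail. CR43641 had 3, 1 and 1 against 17, 24 and 36 counts (4.19 ± 0.59, edgeR adjusted p = 0.00037), and CR43642 had 3, 0 and 2 against 12, 31 and 26 counts (4.03 ± 0.70, adjusted p = 0.0011). Mst87F was at 1.29 ± 0.37 CPM in larval and at 13.7 ± 0.52 CPM in prepupal libraries (SD, n = 3 each, log2 fold change 3.40, edgeR adjusted p = 6.8e-06). Of the 3 tested germ line and testis markers it alone rose. The others, topi (-1.55) and bam (-0.44), had negative changes and were not called with stage as the only term. CR44728, CR43641 and CR43642 passed the low-count filter only through their prepupal libraries, so they had to differ between the stages to be tested. Whether RNA of the germ line or testis was part of these values was not tested.

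Genes of the pathways that make, process or remove noncoding RNAs were mostly lower or not called, and several of these calls changed with the length trend removed. Of 8 genes for small nucleolar ribonucleoproteins, which modify ribosomal RNA, none was higher and 7 were lower (median log2 fold change -1.45), with Fib at -1.42 and nop5 at -2.03, and all 8 were lower with the length trend removed. Of 14 genes for RNA surveillance, including the exosome and nonsense-mediated decay, none was higher and 6 were lower (median -0.32), among them Upf2, Rrp6 and Mtr4. With the length trend removed 8 were lower, but Upf1 (-0.12), nonC (0.16) and Smg5 (0.02) were no longer called, and with the replicate block Csl4 was called lower too (-0.43). Of 5 tested genes of small RNA silencing, AGO3, of the piRNA pathway, rose and AGO2, Dcr-2 and aub fell. AGO2 (-0.12) and Dcr-2 (-0.23) were not called with the length trend removed, and r2d2 was higher with the replicate block (0.25, adjusted p = 0.037). The hosts of small nucleolar RNAs (the Uhg genes), which carry another prefix and are not among the 196, gave 1 lower and none higher of 6, and 6 lower with the length trend removed. For the dosage compensation, omega speckle, small nucleolar, surveillance and Uhg lists, the number of higher genes was also 0 with edgeR's p left unadjusted at a threshold of 0.05, in DESeq2 and in limma-voom, but with the length trend removed it was 1 for dosage compensation and 2 for omega speckles. All these counts stand beside backgrounds of 26.6% higher and 27.3% lower among all rows tested.

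Depth sets what the scarce RNAs can show. Of the 181 tested, 106 reached the level of the low-count filter in all 6 libraries, and 36 of these were higher and 16 lower (49.1% called). Another 23 reached it in no library of 1 stage, and 20 of them were called, a set that had to differ between the stages to be tested. At the edge of the selection, asRNA:CR44093 with 60 counts and asRNA:CR44382 and asRNA:CR46050 with 61 each were just inside and were not tested, and lncRNA:CR44103, lncRNA:CR44957 and lncRNA:CR46115 with 59 each were just outside. Several lncRNAs with known roles elsewhere in the fly fell below the selection: iab4 had 2 counts over all libraries, iab8 of the bithorax complex 4, sphinx 15, the immune-induced IBIN 22, cherub 42 and dntRL 59.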

How the data were processed

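RNA of sorted GFP-positive hemocytes was sequenced in 6 libraries (3 larval and 3 prepupal) prepared with a non-stranded mRNA kit and read as single 50 bp reads. The authors trimmed and aligned the reads with STAR and deposited raw counts per gene from featureCounts on the BDGP6 build (annotation release 101 and no normalization). How strand and reads that meet several genes were counted is not given in these sources. Tool names are from the submitters' processing notes and the methods, which give different bcl2fastq versions.

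Groups followed the stage labels. Counts were scaled by TMM, rows were filtered with filterByExpr (minimum count 10) and the stages were compared with edgeR 4.0.16 (R 4.3.3; quasi-likelihood F test, stage as the only term, Benjamini-Hochberg adjustment over all rows, threshold 0.05). CPM values use the TMM-scaled library sizes, log2 fold changes are prepupal over larval, and ± marks an SE for these and an SD for levels. DESeq2 1.42.0, limma-voom (limma 3.58.1), other scalings, filters, a length trend (loess, span 0.5), a replicate block and leaving out each library were alternatives. The fit was tested on simulated data. Exon overlaps came from annotation release 115, in which all 196 RNAs were found, 192 with the coordinates of the deposited table.

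Same-numbered libraries of the 2 stages deviated together (correlations 0.28, 0.30 and 0.10), and all 6 libraries were closest to the one with their own number, so the numbers were treated as pairs in the block. No 2 libraries of a stage agreed within counting noise.

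RNAs named in the text had a given name, were among the 10 with the highest mean CPM, or lay at the edge of the selection. Others were among the 8 largest changes in a direction (mean of at least 1 CPM, stages apart) or the 6 called RNAs most shared with coding exons. A last set held the 4 largest called changes of RNAs that overlap a coding gene body without sharing its exons. The RNAs, lists and rules were chosen with earlier results of these data known. Other RNAs are said to have been chosen after their values were seen.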

Additional observations from a re-analysis of the deposited data

How the results depend on the processing

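In brackets is the share of all rows tested in a fit that was called. Against 60 higher and 29 lower RNAs (53.9%), the counts were 60 and 28 with DESeq2 size factors (53.8%). They were 53 and 28 without the low-count filter (33.4%), 53 and 26 in DESeq2 (44.1%) and 61 and 28 in limma-voom (54.0%). With the replicate block, which pairs same-numbered libraries and changed no call on a named RNA, they were 59 and 30 (59.8%). With the replicate block and the length trend removed together the counts were 43 and 38 (52.2%). Selecting RNAs with at least 300 counts left 31 and 13 of 64 tested (68.8% called). Those without shared exonic bases gave 35 and 14 of 78 (62.8%), and those overlapping no coding gene 24 and 9 of 58 (56.9%). The called share was 49.2% of the 181 tested and 53.9% of all rows tested. Leaving out 1 library gave 45 to 53 higher and 18 to 30 lower, with 40.3% to 55.8% of all rows called. Of 32 named RNAs, 23 kept their direction and side of the threshold throughout. The sign of CR42491, which was not called, turned with library totals (-0.18), with the length trend removed (-0.49), with that and the replicate block (-0.49), and in leave-one-out fits (-0.16 to 0.13). The calls on roX1 and roX2 were also lost with the block and the length trend removed (-0.51 and 1.02). asRNA:CR44053 and asRNA:CR46048 were not called in DESeq2 (1.31 and 1.52), nor was asRNA:CR45682 (-1.44). The causes were not tested. Depth limits the scarce RNAs most: 158 of the 196 averaged below 5 CPM.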
